A study of Mus musculus with 6 samples.

Results

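Transcripts of the p62-KEAP1-NRF2 axis and of the autophagy machinery that handles p62 were examined in liver RNA-seq of p62+/+ and p62S351E/+ mice. The 10 genes were chosen by name, as the edited gene Sqstm1, its partners Keap1 and Nfe2l2, the second receptor gene Nbr1, the 5 ATG8 genes Map1lc3a, Map1lc3b, Gabarap, Gabarapl1 and Gabarapl2, and the kinase gene Ulk1. All 10 were found among the 24411 gene symbols of the deposited table. Livers were taken at postnatal day 19 from 3 p62+/+ mice and from 3 p62S351E/+ mice, with 1 library per mouse. The p62S351E/+ mice carried an allele of Sqstm1 in which Ser351 was replaced by Glu, a change meant to mimic phosphorylation, together with a wild-type allele. The edit was made by prime editing in C57BL/6N-derived embryonic stem cells, was inherited from a male chimera through in vitro fertilization, and was present in every tissue rather than in hepatocytes alone. The labels give neither the sex of the mice nor a batch. The p62S351E/+ line was described by the study as growth-retarded and malnourished, so that genotype and nutritional state cannot be told apart in these livers.

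p62, the product of Sqstm1, is a receptor of selective autophagy that gathers ubiquitinated proteins into condensates and links them to ATG8 proteins on the forming autophagosome. Its KEAP1-interacting region competes with NRF2 for KEAP1, the substrate adaptor through which the CUL3 ubiquitin ligase marks NRF2 for degradation, and phosphorylation of the serine in that region strengthens the binding. Freed NRF2 switches on genes of detoxification and antioxidant defence, which in liver include glutathione S-transferases and NAD(P)H:quinone oxidoreductase. KEAP1 and NRF2 are controlled largely as proteins, by binding and turnover, so that RNA-seq sees only the transcript side of this circuit.

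The codon changed in the p62S351E allele is shown because it fixes where the genotype sits in the gene that these counts measure. In the GENCODE annotation of GRCm38 (the build of mm10), Sqstm1 (ENSMUSG00000015837.15) lies on the reverse strand of chromosome 11 from 50199366 to 50210827. The codon of Ser351 occupies 50202517 to 50202519, within the coding part of exon 7 of 8 of transcript Sqstm1-202, and is covered by 4 of the 7 annotated transcripts. The reference sequence on the strand of the gene, chr11:50202496-50202540, reads as follows, with the serine codon in capitals.
Sqstm1 around the Ser351 codon: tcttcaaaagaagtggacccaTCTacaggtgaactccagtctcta
The deposited values are counts per gene, so the edited and the wild-type transcripts were added together in every p62S351E/+ mouse.

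The 5 ATG8 genes encode small ubiquitin-like proteins that are coupled to lipid at a C-terminal glycine after the protease ATG4 has trimmed them. The last 45 coding bases of each gene are printed to show how far the family differs in sequence, since the results below are read gene by gene. The glycine codon is in capitals. It is codon 120 in the LC3 genes and codon 116 in the GABARAP genes, and each stretch lies within exon 4 of 4 on the forward strand of GRCm38.
Map1lc3a, chr2:155277590-155277634: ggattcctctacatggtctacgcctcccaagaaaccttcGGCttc
Map1lc3b, chr8:121596723-121596767: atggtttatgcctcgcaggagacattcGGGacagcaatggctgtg
Gabarap, chr11:69994477-69994521: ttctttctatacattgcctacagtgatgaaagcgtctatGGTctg
Gabarapl1, chr6:129541120-129541164: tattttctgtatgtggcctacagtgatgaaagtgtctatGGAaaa
Gabarapl2, chr8:111952358-111952402: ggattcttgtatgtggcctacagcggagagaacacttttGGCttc
Over whole coding sequences, Gabarap and Gabarapl1 were identical at 74.6% of aligned positions and Map1lc3a and Map1lc3b at 74.1%, whereas pairs between the 2 branches ranged from 48.8% to 52.9%. The longest run of coding bases shared by any pair was 17, well under the read length of 75, so that reads of one ATG8 gene could be told from those of another. Stretches of read length were shared instead with pseudogene transcripts in Gabarapl2 (13.3% of its 75-base words) and Map1lc3b (10.9%), and with the opposite-strand gene 1700101I11Rik in Gabarapl1 (17.5%), which had 0 counts in every library. Keap1 shared 8.33% of its words with the opposite-strand Gm16754. Sqstm1 exons overlap those of Mrnip on the other strand, and that gene, listed under its older symbol 3010026O09Rik, had at most 2 counts in any library. The library kit does not mark strand, so reads of overlapping opposite-strand exons cannot be told apart by strand and may be counted for either gene. The counts of all 10 genes were whole numbers in all 6 libraries (within 1e-06).

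The libraries were shallow for protein-coding genes. Total estimated counts lay between 8696712 and 10341620 per mouse, but the genes other than Rn45s, Lars2 and Mir6236 held between 134911 counts, in p62S351E/+ mouse 1, and 315436 counts, in p62S351E/+ mouse 3. All 10 hepatocyte markers (such as Alb and Cps1) were detected in every library. All 10 brain markers (such as Snap25 and Gfap) were detected in the p62+/+ libraries, with summed counts between 2120 and 2417, and in p62S351E/+ mouse 3, with 2268. In p62S351E/+ mice 1 and 2 their summed counts were 3 and 6, with 3 and 4 of the markers detected. Counts of Xist, the RNA that coats the silenced X chromosome, were 1 and 0 in these same mice and 1537 in p62S351E/+ mouse 3, and ranged from 70.8 to 1505 among the p62+/+ mice. The estimate of each of the 10 genes is therefore given below also for p62S351E/+ mouse 3 alone, the p62S351E/+ library that resembled the p62+/+ libraries in brain transcripts. That arm holds 1 library, so the spread in such a fit comes from the p62+/+ mice alone, and its estimates are given as values with no test. Other cell types also differed between the genotypes. Red blood cell markers summed to 176, 137 and 196 normalized counts in p62+/+ mice 1 to 3, and to 133, 114 and 58.5 in p62S351E/+ mice 1 to 3, with mouse 3 the lowest of all 6. Stellate cell markers were also lower without overlap (150 to 269 against 94.5 to 137), hepatocyte markers were higher without overlap (12200 to 13600 against 14600 to 30000), and macrophage, endothelial and bile duct markers overlapped. The part of these cell types in the results was not tested. In RNA of whole tissue, fewer cells of a type and less RNA per cell cannot be told apart.

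None of the 10 genes passed the test between the genotypes. A gene was called at an adjusted p (Benjamini-Hochberg over 5945 genes tested, edgeR's quasi-likelihood test) below 0.05 with an absolute log2 fold change above 1. At this rule 0.841% of all genes tested were called higher in p62S351E/+ mice, 0.0841% were called lower, and 0.925% were called in either direction. All 10 genes passed the filter on low counts, although Map1lc3a reached 10 counts in p62+/+ libraries only. Of the 10 there were 4 with a fitted log2 fold change above 0 and 6 below 0, with a median of -0.22 against -0.03 over all genes tested. DESeq2 and limma-voom also called 0 of the 10. At an unadjusted p below 0.05, 2 of the 10, Map1lc3a and Gabarapl2, were lower, where 5.55% of all genes tested were lower at that level, and 0 were higher, where 9.02% were. The same libraries were examined for NRF2 targets. Of 15 canonical targets 13 were tested, 6 rose and 0 fell, with a median log2 fold change of 2.23. The count and the median cover only targets that passed the filter. Slc7a11 and G6pdx did not pass it, and their groups overlapped. The list of targets was written with earlier results of these mice known. Among them Gclc, which encodes the catalytic subunit of glutamate-cysteine ligase, rose 5.92-fold (log2 scale 2.57 ± 0.34 as standard error), at an adjusted p of 0.0127 in edgeR, a call lost when any p62+/+ mouse was left out. Nqo1, the quinone oxidoreductase gene, was estimated at 3.93 ± 0.71 on the log2 scale and did not pass (adjusted p = 0.067, edgeR). When 1 mouse was left out, 3 to 11 targets were called higher, with 3 without p62+/+ mouse 2 and 11 without p62S351E/+ mouse 3.

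**Figure D1:**
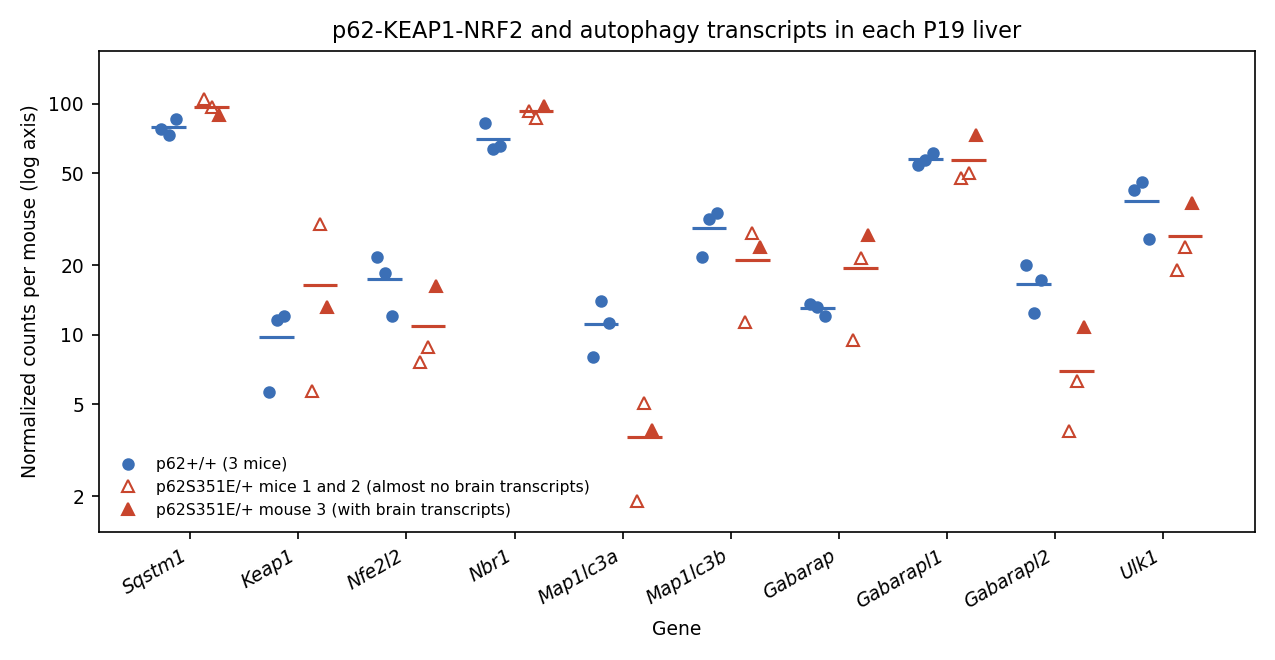
Normalized counts (log axis) of the 10 genes in each of the 6 livers. Circles are p62+/+ mice, triangles are p62S351E/+ mice, hollow where brain transcripts were nearly missing (mice 1 and 2) and filled in mouse 3, and short lines are group means (n = 3). The p62S351E/+ mice lie above all p62+/+ mice for Sqstm1 and Nbr1 and below all of them for Map1lc3a and Gabarapl2, and the groups overlap for the other genes.

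The receptor genes were measured most precisely. Sqstm1 had 77.8, 73.0 and 86.4 normalized counts in p62+/+ mice 1 to 3 and 105, 97.0 and 89.9 normalized counts in p62S351E/+ mice 1 to 3. Every p62S351E/+ mouse lay above every p62+/+ mouse, but the gap between the nearest mice was smaller than the spread within either group. The fold change of Sqstm1 was 1.23 (95% interval 0.901 to 1.67, log2 fold change 0.30, standard error 0.20), and did not pass the test (adjusted p = 0.498, edgeR). A doubling and a halving of the Sqstm1 transcript both lie outside this interval. By real-time PCR the study reported much higher p62 mRNA, which it counts among NRF2 targets, in p62S351E/+ livers of younger mice. Age, method and number of mice differ, and the difference between the results was not examined. Nbr1 encodes a receptor with the same domain plan as p62, which joins p62 in its condensates. It had 82.7, 63.7 and 65.6 normalized counts in the p62+/+ livers and 93.3, 86.9 and 98.4 in the p62S351E/+ livers, again without overlap of the groups. Its fold change was 1.31 (95% interval 0.949 to 1.82, adjusted p = 0.414, edgeR). Groups that do not overlap in the higher direction were found for 12% of all genes tested, so that 2 of 10 genes in this position is near that share. The ratio of Nbr1 to Sqstm1 counts, which does not depend on scaling, was 1.06, 0.872 and 0.76 in the p62+/+ livers and 0.891, 0.896 and 1.09 in the p62S351E/+ livers. The means of this ratio, 0.898 ± 0.153 and 0.961 ± 0.116 (SD, n = 3 each), differed by less than the SD of either genotype. With p62S351E/+ mouse 3 alone against the p62+/+ mice, the log2 fold changes were 0.2 for Sqstm1 and 0.49 for Nbr1.

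Keap1 and Nfe2l2 were low in counts. Keap1, on chromosome 9 from 21229730 to 21239361, had raw counts of 7, 15 and 14 in the p62+/+ livers and 3, 24 and 17 in the p62S351E/+ livers. After scaling, the lowest mouse of each genotype was nearly the same (5.62 and 5.71 normalized counts), and p62S351E/+ mouse 2 stood highest of all 6 mice at 30.2. The log2 fold change of Keap1 was 0.76 with a 95% interval from -0.51 to 2.03 (adjusted p = 0.539, edgeR). Without p62S351E/+ mouse 2 it was 0.04, and with p62S351E/+ mouse 3 alone against the p62+/+ mice 0.44. Nfe2l2, which encodes NRF2 and lies on chromosome 2 from 75675513 to 75704641, had raw counts of 27, 24 and 14 in the p62+/+ livers and 4, 7 and 21 in the p62S351E/+ livers. Its normalized counts were 21.7, 18.6 and 12.1 against 7.62, 8.82 and 16.3, so that p62S351E/+ mice 1 and 2 lay below all p62+/+ mice and mouse 3 lay among them. The log2 fold change of Nfe2l2 was -0.63 with a 95% interval from -1.52 to 0.26 (adjusted p = 0.474, edgeR), and it was -0.10 with p62S351E/+ mouse 3 alone against the p62+/+ mice. Neither interval is narrow enough to exclude a change of 1 on the log2 scale in the direction of the estimate.

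Of the other genes of this axis, 20 of a list of 21 symbols were in the table, 11 were tested, and 0 were called in either direction. The symbol not found, Skp1, is a newer name of the listed Skp1a, which was found. Bach1, which encodes a repressor that competes with NRF2 at its DNA sites, had the highest estimate with a log2 fold change of 0.86 (95% interval -0.02 to 1.73, adjusted p = 0.353, edgeR). Btrc, which encodes the F-box protein of the KEAP1-independent route of NRF2 degradation, had the lowest at -1.10 (95% interval -2.75 to 0.55, adjusted p = 0.492, edgeR), from 13.8 to 17.9 normalized counts in the p62+/+ livers and 0, 6.30 and 13.2 in p62S351E/+ mice 1 to 3. The median of the 11 was -0.35.

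The ATG8 genes held the lowest estimates of the 10. Map1lc3a, the LC3A gene, had raw counts of 10, 18 and 13 in the p62+/+ livers and 1, 4 and 5 in the p62S351E/+ livers. In normalized counts these were 8.02, 14.0 and 11.2 against 1.9, 5.04 and 3.87, with every p62S351E/+ mouse, mouse 3 included, below every p62+/+ mouse. The fold change of Map1lc3a was 0.346 (95% interval 0.152 to 0.787, log2 fold change -1.53, standard error 0.52), with an unadjusted p of 0.0171 in edgeR's test and an adjusted p of 0.252. Map1lc3a reached 10 counts only in p62+/+ libraries, the group where it is high. The filter on low counts therefore favours a low p, an interval below 0 and groups without overlap for this gene. Its values are given as a description. Gabarapl2, which encodes GATE-16, had raw counts of 25, 16 and 20 against 2, 5 and 14, or 20.1, 12.4 and 17.3 against 3.81, 6.30 and 10.8 normalized counts. Its groups did not overlap either, and mouse 3 stood nearest to the p62+/+ mice. The fold change of Gabarapl2 was 0.449 (95% interval 0.232 to 0.869, adjusted p = 0.278, edgeR). Groups that do not overlap in the lower direction were found for 14.7% of all genes tested, beside 2 of these 10.

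The estimates were set beside the level of brain transcripts, whose part in them was not tested. Against the 3 p62+/+ mice, p62S351E/+ mouse 3 alone gave a log2 fold change of -1.48 for Map1lc3a and -0.59 for Gabarapl2, as values with no test. With the brain markers as a covariate the estimates were -1.45 and -0.60. Brain markers were high in all p62+/+ libraries, so this covariate varied almost only among the p62S351E/+ libraries. The covariate fit in effect also compares mouse 3 with the p62+/+ mice, and is not a separate result. Without p62S351E/+ mouse 3, Gabarapl2 was called lower (log2 fold change -1.64, adjusted p = 0.0191, edgeR), in a fit that called 975 genes lower against 5 with all 6 mice.

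The remaining ATG8 genes overlapped between the genotypes. Map1lc3b, the LC3B gene used widely to follow autophagosomes, had 21.7, 31.8 and 33.7 normalized counts in the p62+/+ livers and 11.4, 27.7 and 24.0 in the p62S351E/+ livers, a log2 fold change of -0.44 (95% interval -1.23 to 0.35). Gabarap had 13.6, 13.2 and 12.1 normalized counts in the p62+/+ livers and 9.52, 21.4 and 27.1 in the p62S351E/+ livers. Mouse 1 lay below and mice 2 and 3 lay above all p62+/+ mice, with a log2 fold change of 0.61 (95% interval -0.26 to 1.47). Gabarapl1, the ATG8 gene with the most counts in every library, had 54.6, 57.4 and 61.3 normalized counts against 47.6, 50.4 and 73.6. Its log2 fold change was -0.01 with a 95% interval from -0.54 to 0.53, which excludes a doubling or a halving. The adjusted p was 0.562 for Map1lc3b, 0.476 for Gabarap and 0.991 for Gabarapl1 (edgeR). With p62S351E/+ mouse 3 alone against the p62+/+ mice, the log2 fold changes were -0.26 for Map1lc3b, 1.07 for Gabarap and 0.36 for Gabarapl1.

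Shares within the family do not depend on how the libraries were scaled. The summed counts of the 5 genes were 147, 166 and 157 in the p62+/+ livers and 39, 88 and 180 in p62S351E/+ mice 1 to 3. Map1lc3a took 6.80%, 10.8% and 8.28% of these counts in the p62+/+ livers and 2.56%, 4.55% and 2.78% in p62S351E/+ mice. Gabarapl2 took 17.0%, 9.64% and 12.7% against 5.13%, 5.68% and 7.78%. Gabarap had the opposite order, with 11.6%, 10.2% and 8.92% against 12.8%, 19.3% and 19.4%. For each of these 3 genes the shares of the genotypes did not overlap, and Map1lc3b and Gabarapl1 overlapped. Shares within a library add up to the whole and so move together, and no background over all genes was set beside them. The Wilson 95% intervals of single libraries were wide, from 0.454% to 13.2% for Map1lc3a in p62S351E/+ mouse 1 and from 1.19% to 6.34% in mouse 3, against 6.97% to 16.5% in p62+/+ mouse 2. These intervals cover counting error only.

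**Figure D2:**
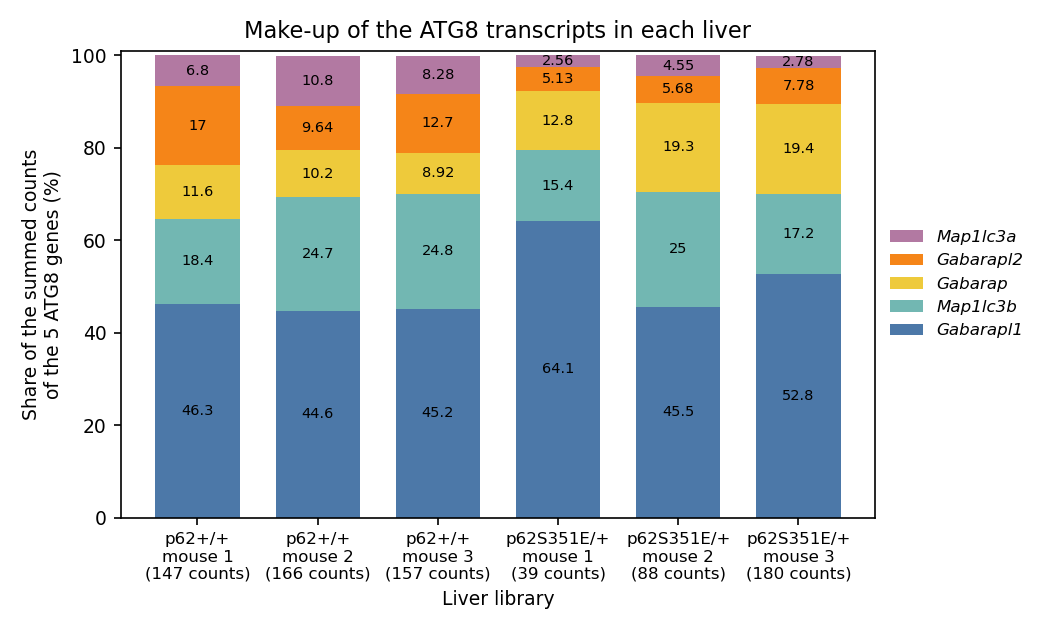
Share (%) of the summed counts of the 5 ATG8 genes taken by each gene, 1 bar per liver, with the summed counts under each bar. Map1lc3a (top) took 6.80% to 10.8% in the p62+/+ livers and 2.56% to 4.55% in p62S351E/+ mice, and Gabarap took 8.92% to 11.6% and 12.8% to 19.4%.

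Pairwise ratios do not use the family total. Of the 10 pairs, 6 did not overlap between the genotypes and 4 did, among these 4 Map1lc3a to Gabarapl2 and Gabarap to Gabarapl1. No share over pairs of other genes was set beside this count, so no shift of the family is read from it. Each of the 6 pairs holds Map1lc3a, Gabarap or Gabarapl2, which had 1, 5 and 2 raw counts in p62S351E/+ mouse 1. The ratios printed here are all among the 6. The ratio of Map1lc3a to Map1lc3b counts was 0.37, 0.439 and 0.333 in the p62+/+ livers and 0.167, 0.182 and 0.161 in the p62S351E/+ livers. The ratio of Gabarap to Gabarapl2 counts was 0.68, 1.06 and 0.70 against 2.5, 3.4 and 2.5. The ratio of Gabarapl1 to Gabarapl2 counts was 2.72, 4.62 and 3.55 against 12.5, 8 and 6.79, with p62S351E/+ mouse 3 nearest to the p62+/+ mice. The shares and ratios were chosen after the values had been seen, the ratios share genes, and the smallest p that an exact two-sided permutation test allows with 3 mice per genotype is 0.1, so they are given as descriptions.

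Ulk1 encodes the kinase that starts autophagosome formation and that the study examined as a kinase of the serine in the KEAP1-interacting region of p62. It had 42.5, 45.8 and 25.9 normalized counts in the p62+/+ livers and 19, 23.9 and 37.2 in the p62S351E/+ livers. Mice 1 and 2 lay below all p62+/+ mice and mouse 3 lay between them. The log2 fold change of Ulk1 was -0.49 (95% interval -1.24 to 0.26, adjusted p = 0.502, edgeR). With mouse 3 alone against the p62+/+ mice it was -0.03, and with the brain markers as a covariate, which rests on the same mouse, -0.02. For Ulk1 and Nfe2l2, p62S351E/+ mouse 3, the library with brain transcripts, was within the p62+/+ range, and the other 2 p62S351E/+ libraries were below it. Mouse 3 also differed from mice 1 and 2 in Xist (1537 against 1 and 0 counts). Its counts outside Rn45s, Lars2 and Mir6236 were higher too (315436 against 134911 and 231631). With Xist as a covariate the log2 fold changes were -0.27 for Ulk1 and -0.42 for Nfe2l2. Brain transcripts, Xist and depth cannot be told apart here, and their part in these estimates was not tested.

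The rest of the autophagy pathway was measured with lists of named genes. Of 89 gene symbols in 6 lists, 86 were in the table and 55 were tested, of which 0 were called higher and 0 lower, with a median log2 fold change of 0.01. The lists held an older and a newer symbol of the same gene for Skp1a and Skp1 and for Fam134b and Retreg1. Only the older symbols were in the table. DESeq2 also called 0. At an unadjusted p below 0.05, 1 of the 55 was higher, where 9.02% of all genes tested were, and 3 were lower, where 5.55% were. The 1 higher gene was Prkaa2, which encodes the catalytic subunit alpha 2 of AMPK, a kinase complex that responds to low energy. It had 9.63, 15.5 and 14.7 normalized counts in the p62+/+ livers and 43.8, 32.8 and 31.8 in the p62S351E/+ livers. All 3 p62S351E/+ mice, mouse 3 included, had more than 2 times the counts of the highest p62+/+ mouse. The log2 fold change of Prkaa2 was 1.43 (95% interval 0.77 to 2.09), and its adjusted p of 0.0769 (edgeR) missed the threshold. It was called with limma-voom (adjusted p = 0.0194) but not with DESeq2 (adjusted p = 0.24), and its log2 fold change with mouse 3 alone against the p62+/+ mice was 1.26, a value with no test.

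Among the conjugation genes 4 of 11 were tested. Atg16l1, which encodes the subunit that places the ATG12-ATG5 ligase on the membrane where ATG8 proteins are lipidated, had 16, 20.2 and 20.7 normalized counts in the p62+/+ livers and 9.52, 8.82 and 10.8 in the p62S351E/+ livers. These groups did not overlap, and the log2 fold change was -0.95 (95% interval -1.62 to -0.27, adjusted p = 0.229, edgeR). Atg4d, a gene of the ATG4 proteases, had the highest estimate of the list at 0.38 (95% interval -0.73 to 1.49). Among other receptors 15 of 18 listed symbols were tested. Rtn3, which encodes a receptor for tubular endoplasmic reticulum, had 123, 131 and 117 normalized counts in the p62+/+ livers and 34.3, 25.2 and 92.2 in the p62S351E/+ livers. Mouse 3 was far closer to the p62+/+ mice than mice 1 and 2 were, and the log2 fold change of -1.27 (adjusted p = 0.283, edgeR) was -0.44 with the brain markers as a covariate. Tex264, another endoplasmic reticulum receptor gene, had the highest estimate at 0.77 (95% interval -0.18 to 1.71).

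In the PI3K complex list 4 of 9 genes were tested. Becn1, which encodes Beclin 1, had 19.3, 31.1 and 16.4 normalized counts against 5.71, 11.3 and 16.3, a log2 fold change of -0.94 (adjusted p = 0.345, edgeR) that was -0.45 with mouse 3 alone, and Uvrag, a partner of Beclin 1, had the highest estimate at 0.37. In the list of the ULK complex and of ATG9 vesicles 9 of 14 were tested, with estimates from -0.68 for Tmem41b to 0.43 for Vmp1, both of which encode lipid scramblases of the endoplasmic reticulum. In the list of p62 kinases, nutrient kinases and transcription factors of autophagy 12 of 16 were tested, and Map3k7, which encodes TAK1, had the lowest estimate at -0.32. The number of genes whose groups did not overlap was 3 higher and 8 lower of 55, beside 12% and 14.7% of all genes tested.

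**Figure D3:**
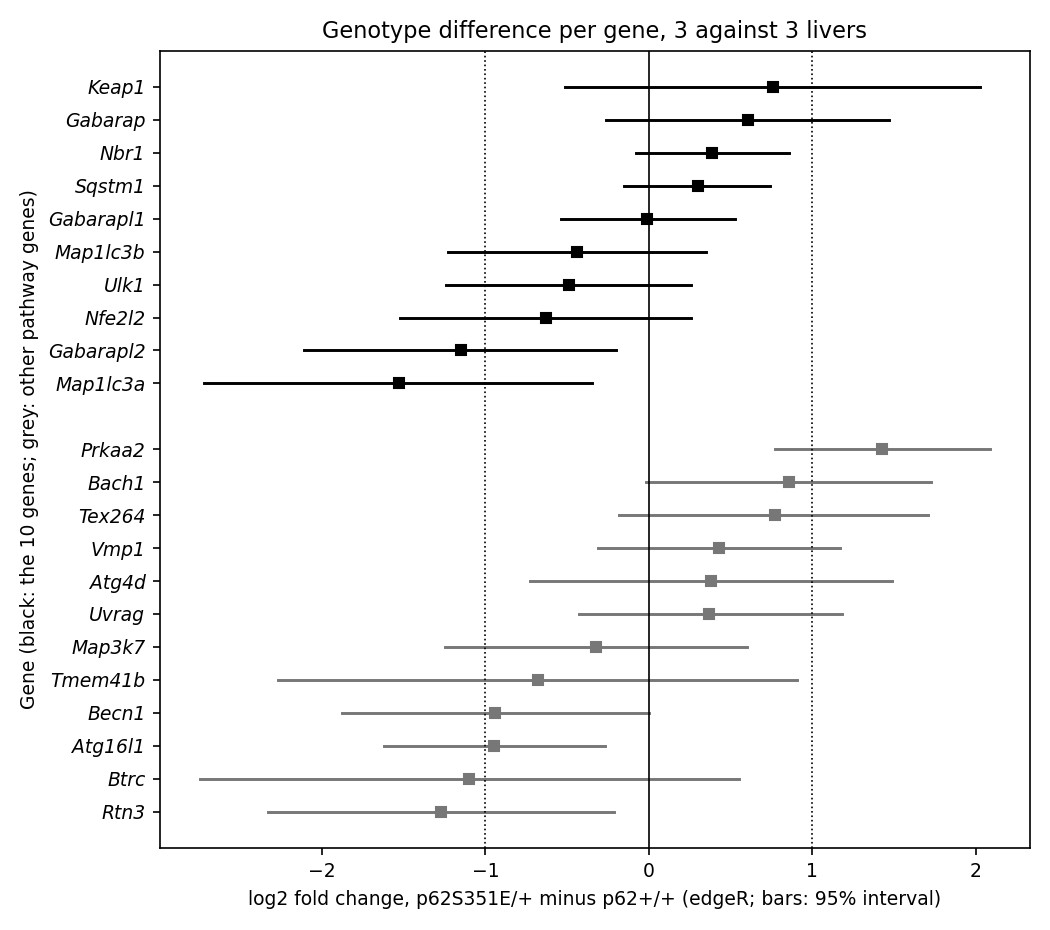
Fitted log2 fold changes (p62S351E/+ minus p62+/+, edgeR, 3 against 3 mice) with 95% intervals for the 10 genes (black) and for the highest and lowest gene of each of the 6 pathway lists (grey), and dotted lines at 1 and -1. The intervals of Map1lc3a (-2.72 to -0.35) and Gabarapl2 (-2.11 to -0.20) lie below 0. So do those of the pathway genes Rtn3 (-2.33 to -0.21) and Atg16l1 (-1.62 to -0.27), and that of Prkaa2 (0.77 to 2.09) lies above 0. All intervals are before adjustment for the 5945 genes tested. Map1lc3a reached 10 counts in p62+/+ libraries only, so it passed the filter on low counts through the group where it is high.

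Levels of different genes were compared per kilobase of annotated exon. In p62+/+ mice the order was Gabarapl1 (28.7 ± 1.68 normalized counts per kilobase, SD, n = 3), Sqstm1 (23.6 ± 2.02), Nbr1 (10.3 ± 1.52), Map1lc3a (9.38 ± 2.52), Gabarapl2 (7.13 ± 1.66), Gabarap (7.04 ± 0.433), Ulk1 (5.87 ± 1.64), Nfe2l2 (4.60 ± 1.29), Map1lc3b (3.87 ± 0.861) and Keap1 (2.08 ± 0.77). By this length Gabarapl1 and Sqstm1 stood apart from each other and from all genes after them, and Keap1 stood apart at the end. Each neighbouring pair from Nbr1 to Map1lc3b overlapped between mice. In p62S351E/+ mice Sqstm1 (29.0 ± 2.22) and Gabarapl1 (28.4 ± 7.09) overlapped. From Nbr1 downward every pair of neighbours in the p62S351E/+ order overlapped between mice, so that no order is read from them. Map1lc3a was at 3.05 ± 1.34 and Gabarap at 10.5 ± 4.87 normalized counts per kilobase, and Keap1 ranged from 1.22 to 6.44, the highest value being that of mouse 2. The level of Map1lc3b depends on its long annotated exon union of 7517 bases.

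Genes whose pattern over the 6 mice was among the most like that of Sqstm1 were Rsrp1, Apoe, Tln1 and Ralgapa2. Likeness was the root mean square distance of centred log2 normalized counts, over 705 other genes with at least 50 normalized counts, and ranged from 0.0675 for Rsrp1 to 0.091 for Ralgapa2, against a median of 0.35. Rsrp1 had 144, 127 and 139 normalized counts in the p62+/+ livers and 173, 171 and 150 in the p62S351E/+ livers, and 0 of these 4 passed the test. A distance of this kind favours genes that vary little.

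Promoter windows of 300 bases, from 250 before to 50 after the annotated start in RefSeq (GRCm38.p6), were found for 9 of the 10 genes, and Map1lc3a had no entry. They were searched on both strands for TGACNNNGC, the core of the antioxidant response element that NRF2 binds with small MAF proteins, and for TCACGTGA, a core of the CLEAR element of TFEB. The first was found in the windows of Nfe2l2, 240 bases before the start, and Map1lc3b, 4 bases after it, and in 12.4% of all 32851 windows. The second was found in 0.974% of all windows and in none of those of the 9 genes. Sqstm1 held neither in this window. The stretch of Nfe2l2 on the strand of the gene, with the matching letters in capitals, is shown because NRF2 is encoded by this gene.
Nfe2l2, chr2:75704880-75704913: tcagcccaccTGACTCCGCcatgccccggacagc
A match is a description of the letters only, and the transcript of Nfe2l2 did not pass the test in these livers.

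**Figure D4:**
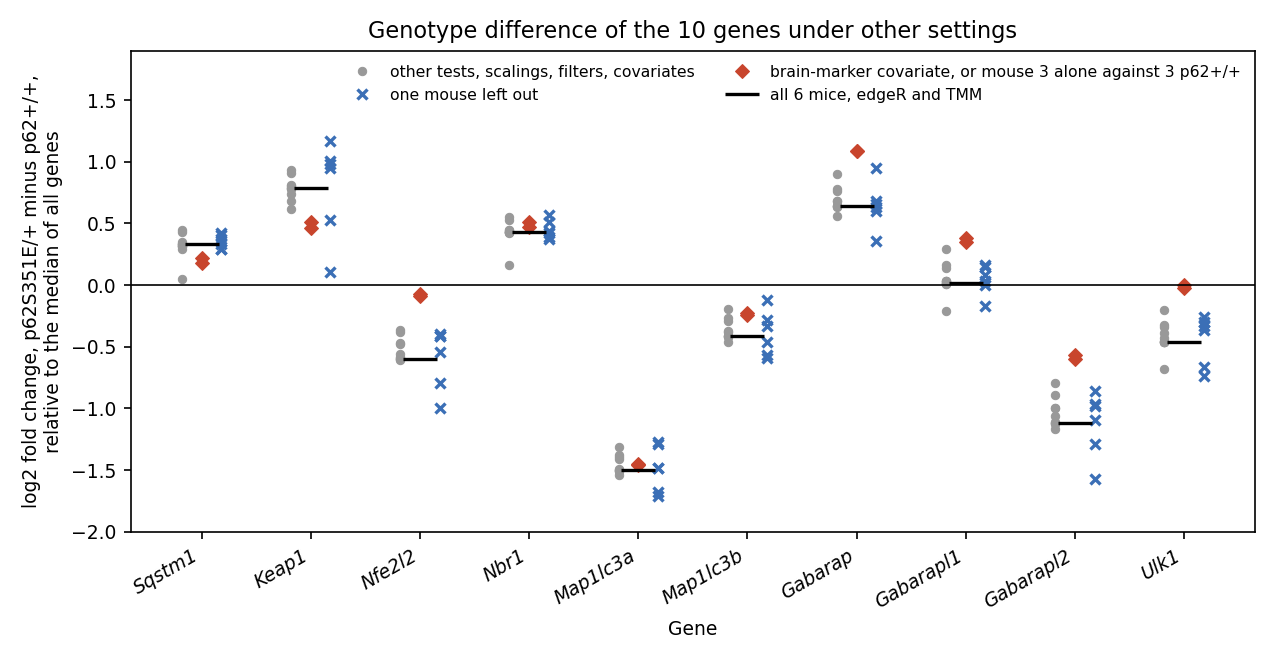
Log2 fold change (p62S351E/+ minus p62+/+) of the 10 genes minus the median of all genes in the same fit. Black lines are the fit with all 6 mice, grey circles other tests, scalings, filters and covariates, and blue crosses fits without 1 mouse. Red diamonds are the brain-marker covariate and mouse 3 alone, which rest on the same mouse. Map1lc3a lies between -1.71 and -1.27 in the fits that tested it, which all draw on the same low counts (1, 4 and 5 in p62S351E/+ mice). Ulk1 and Nfe2l2 come near 0 at the red diamonds, and Gabarapl1 lies on both sides of 0.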

How the data were processed

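Total RNA of 6 livers was depleted of ribosomal RNA and sequenced by the authors as 75-base single-end reads. The authors trimmed the reads with Trim Galore, aligned them to mm10 with STAR and deposited estimated counts (RSEM expected counts) per gene symbol without normalization. Versions and annotation were not given in the sources used here. The sample labels gave the genotype and the number of each mouse.

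Estimated counts were rounded to whole numbers, filtered by filterByExpr (minimum count 10), scaled by TMM and tested with edgeR 4.0.16 in R 4.3.3 (glmQLFit, robust, legacy set to FALSE), adjusted over all 5945 genes tested. Edges of 95% intervals come from the standard error and the test's degrees of freedom. Normalized counts are estimated counts divided by a TMM-scaled library size whose geometric mean over the 6 libraries was set to 1. DESeq2 1.42.0, limma-voom (limma 3.58.1), other scalings, filters and covariates, the replicate block and leaving out mice were alternatives, and the tests were run on simulated counts first. P-values set the difference between the genotypes against the spread between mice of the same genotype, estimated with information shared over genes. Among the p62S351E/+ mice that spread includes their differences in brain transcripts, Xist and depth.

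The 10 genes, the gene lists and the tests were chosen with earlier results of these data known. The named genes were the 10, every pathway gene called, the highest and lowest tested gene of each pathway list, Nqo1 and Gclc, and the 5 genes nearest to Sqstm1, of which 1 is not reported here. Words of 75 bases, coding sequences and positions come from GENCODE M21 (GRCm38), promoters from RefSeq (GRCm38.p6).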

Additional observations from a re-analysis of the deposited data

How the results depend on the processing

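No alternative called any of the 10 genes higher, and the number called lower ran from 0 to 1 over the fits without 1 mouse, where Gabarapl2 passed without p62S351E/+ mouse 3. In the 6 pathway lists, 1 gene (Prkaa2) was called higher with limma-voom and 1 with at least 10 counts in every library. Over the fits without 1 mouse the lists gave 0 to 1 higher and 0 to 4 lower genes, the upper values (Prkaa2 higher, Becn1, Btrc, Fbxw11 and Rtn3 lower) without p62S351E/+ mouse 3 (Fbxw11 is named after its values were seen). That fit gave 333 higher and 975 lower genes overall against 50 and 5, and the other alternatives gave 16 to 122 higher and 1 to 29 lower. Requiring 10 counts in each of the 6 libraries left 6 of the 10 genes untested. Gabarapl1 changed sign under the legacy method (0.00), the brain-marker covariate (0.35), the Xist covariate (0.23) and mouse 3 alone (0.36), and ran from -0.24 to 0.12 without 1 mouse. The brain-marker covariate and mouse 3 alone rest on the same mouse. Atg4d reached 0.00 with the brain-marker covariate and -0.01 with mouse 3 alone, and Map3k7 ran from -0.61 to 0.17 without 1 mouse. Gclc did not pass without p62+/+ mouse 1, 2 or 3 (adjusted p from 0.0791 to 0.104, edgeR), and Nqo1 passed in 6 of 18 alternatives, 1 of them mouse 3 alone, where the lone mouse is assumed to vary like the p62+/+ mice. The cause of these changes was not tested. Library size outside Rn45s, Lars2 and Mir6236 as the scaling moved the median of all genes to -0.19 from -0.03 (DESeq2 -0.18, no filter -0.16) and turned the direction of none of the 10.

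With the replicate number as a block, 0 of the 10 genes were called and 18 genes were higher and 1 lower overall. The numbers do not pair the mice, since same-numbered mice correlated at 0.07, -0.08 and 0.00 across genes in their deviations from the group means. Per kilobase of the longest transcript the order of the 10 levels was the same in p62+/+ mice, but Gabarapl1 and Sqstm1 (means 31.7 and 29.6) then overlapped between mice. Genes with under 30 counts in every library (Keap1, Nfe2l2, Map1lc3a and Gabarapl2) are limited by depth.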
